A study of Mus musculus with 6 samples.

Results

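Cytosolic ribosomal proteins are the structural proteins of the 80S ribosome, which joins a small 40S and a large 60S subunit, and the acidic stalk proteins of the large subunit recruit the translation factors. Their genes are among the most strongly transcribed in most cells. In vertebrates these messages begin with a run of pyrimidines, the 5′ terminal oligopyrimidine or TOP tract, through which mTORC1 and the RNA-binding protein Larp1 control their translation. Glucocorticoids are known to restrain protein synthesis in skeletal muscle, partly through mTORC1, so the amount of message for the ribosome itself is a natural quantity to read after a glucocorticoid treatment. The counts measure messenger RNA and not its loading on ribosomes.

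The genes were chosen by symbol, from those that begin with Rpl or Rps and a number together with the stalk genes Rplp0, Rplp1 and Rplp2, leaving out symbols that mark a pseudogene with -ps. This took 87 of the 46983 genes in the table. By symbol alone, 49 were counted with the 60S subunit, 35 with the 40S subunit and 3 with the stalk. The annotation calls 83 of the 87 protein coding and 4 pseudogenes, namely Rps3a2, Rps3a3, Rps12l1 and Rps4l, all counted with the 40S subunit. The 87 genes lie on 19 chromosomes. RNA came from C2C12 cells, a mouse myoblast line that fuses into multinucleated myotubes when serum is reduced. In the corticosterone group, differentiated myotubes of low passage received corticosterone, the main glucocorticoid of rodents, at 1e-07 M for 24 h. In the vehicle group, myotubes of the same line received ethanol at 1 µL/mL for 24 h, and each group had 3 libraries that the submitters call independent biological replicates. Both groups are of a single cell line in culture, grown in horse serum during differentiation.

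Libraries held 23877583 to 29928653 counts. Myotube markers were present, with 7 of the 7 in the table detected at a mean of at least 1 CPM, the count scaled to a common library size, and their summed level was 13574 to 15520 CPM in corticosterone libraries and 9564 to 13604 CPM in vehicle libraries. Markers of proliferating myoblasts summed to 210 to 225 CPM in corticosterone libraries and 245 to 251 CPM in vehicle libraries, with 6 of 6 detected. Of the fibroblast markers 3 of 4 were detected, of the osteoblast, blood and epithelial markers 1 each, and of the adipocyte and endothelial markers 0, with 3 of the 4 adipocyte markers at 0 counts in every library. Mitochondrially encoded genes took 2.53, 2.46 and 2.39% of counts in corticosterone replicates 1, 2 and 3 and 1.69, 1.67 and 2.76% in vehicle replicates 1, 2 and 3. The part of these differences in the results below was not tested. Fkbp5, a co-chaperone gene that glucocorticoids are known to induce, gave 151 CPM in corticosterone replicate 1, 36.9 CPM in replicate 2 and 135 CPM in replicate 3, against 36.9, 177 and 35.3 CPM for vehicle replicates 1, 2 and 3. The library labelled corticosterone replicate 2 was thus low and the library labelled vehicle replicate 2 high, against their labels, so every difference between labels below rests on labels that this gene does not follow. Over all genes the nearest library to corticosterone replicate 1 was vehicle replicate 3, to corticosterone replicate 2 it was corticosterone replicate 3, and to vehicle replicate 1 it was vehicle replicate 2.

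No ribosomal protein gene passed the test between the labels. A count filter kept 81 of the 87 genes, among 14450 genes kept in all, and edgeR's quasi-likelihood test with Benjamini-Hochberg adjustment over all of those called 0 of the 81 at an adjusted p of 0.05, beside 0.0% of all genes. At an unadjusted p under 0.05 there were 3 ribosomal protein genes (3.7%), against 11.8% of all genes, and DESeq2 called 0 of them, against 1.04% of all genes with an adjusted value. The log2 difference, corticosterone minus vehicle, was above 0 for 40 genes and below 0 for 41, with a median of -0.002, beside 50.8% above 0 and a median of 0.004 over all genes. It was within 0.1 of 0 for 52 of the 81 genes (64.2%), against 37.4% of all genes, and its median standard error was 0.091. The share within 0.1 was not computed over genes of similar level alone. In such bulk RNA, fewer cells of a type and less RNA per cell cannot be told apart. By subunit, 21 of 45 genes of the 60S subunit, 16 of 33 of the 40S subunit and 3 of 3 of the stalk were above 0, and the difference between them was not tested. Of the 81, 7 genes had no overlap between the labels, all 7 with higher values in corticosterone (among them Rpl28, Rps2, Rpl23, Rpl26, Rps4x and Rpl37), against 16.6% of all genes in either direction, 8.41% higher and 8.19% lower. Single libraries moved these counts: without corticosterone replicate 3, 25 of 82 genes were above 0 and 30 had no overlap, against 23.0% of all genes without overlap. The genes without overlap numbered 15 without corticosterone replicate 2, 11 without corticosterone replicate 1 and 27 without vehicle replicate 3, where 27.5, 34.3 and 41.9% of all genes had none. The number called stayed at 0 in each.

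**Figure D1:**
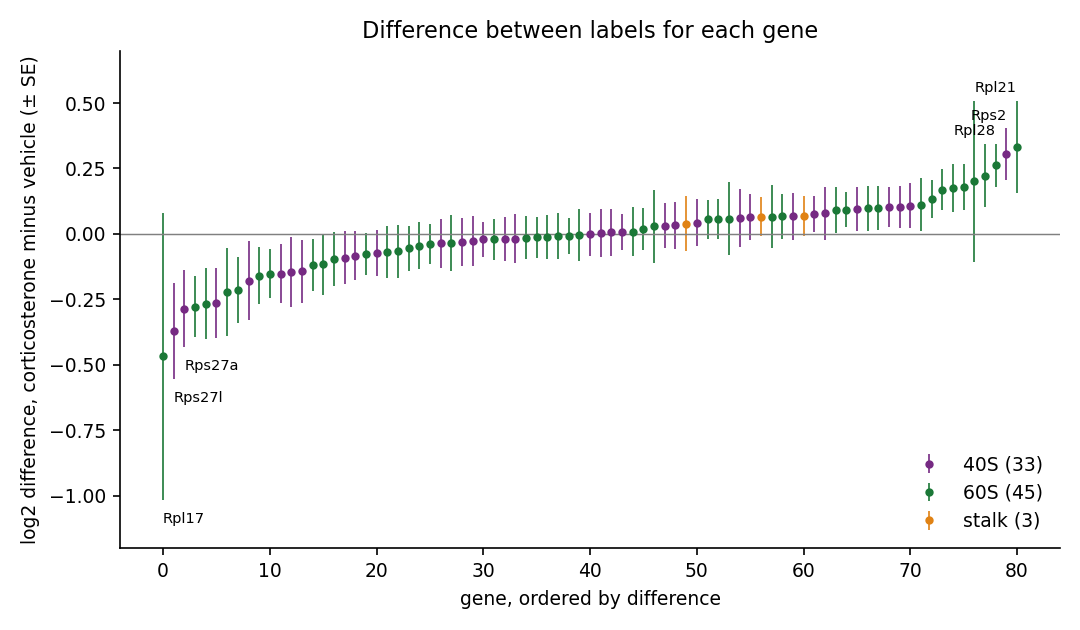
Log2 difference of each of the 81 ribosomal protein genes kept by the filter, corticosterone minus vehicle, with its standard error from edgeR, ordered by size and coloured by subunit. The points run from -0.47 for Rpl17 to 0.33 for Rpl21, and 40 lie above 0 and 41 below it.

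Together the 87 genes took 2.35, 2.28 and 2.65% of all counts in corticosterone replicates 1, 2 and 3 and 2.61, 2.53 and 2.39% in vehicle replicates 1, 2 and 3. The Wilson 95% interval of the lowest share, in corticosterone replicate 2, was 2.28 to 2.29%, and that of the highest, in corticosterone replicate 3, was 2.64 to 2.65%, covering counting error only. The mean share was 2.43 ± 0.19% in corticosterone and 2.51 ± 0.11% in vehicle (SD, n = 3 each), and the groups overlapped. The highest and the lowest share were both found in libraries labelled corticosterone.

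Levels between genes were set side by side as CPM per kilobase of the principal annotated transcript. Rpl41, which encodes the smallest ribosomal protein, was highest at 1327 CPM per kb, followed by Rplp1 at 1266, Rplp0 at 952, Rps15 at 941 and Rpl8 at 919.8 CPM per kb. These values depend on which transcript stands for a gene and on reads shared with other genes. Rplp0, the stalk base that anchors the other acidic proteins, gave 1210.4, 1258 and 1461 CPM in corticosterone libraries and 1329, 1307 and 1190.1 CPM in vehicle libraries. Rplp1 gave 623, 642 and 676 CPM in corticosterone libraries against 625, 622 and 602 CPM in vehicle libraries, and Rplp2 gave 229, 224 and 248 CPM in corticosterone against 221, 219 and 232 CPM in vehicle. All 3 stalk genes overlapped between the labels, with corticosterone replicate 3 the highest library for each, and their log2 differences were 0.04 ± 0.10 for Rplp0, 0.07 ± 0.077 for Rplp1 and 0.06 ± 0.075 for Rplp2 (SE). Rps15, a 40S protein, gave 449, 451 and 527 CPM in corticosterone libraries and 473, 468 and 454 CPM in vehicle libraries, again highest in corticosterone replicate 3.

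A steady level from library to library was the most common pattern. The highest library stood at a median of 1.21 times the lowest over the 81 genes, against 1.39 over all genes kept and 1.238 over the genes whose mean CPM lay between the 10th and 90th percentile of the ribosomal protein genes, and 63 of the 81 (77.8%) stayed under 1.3 times, against 37.9% of all genes. Rps29, a small zinc-binding protein of the 40S subunit, was among the steadiest, at 128, 129 and 132 CPM in corticosterone libraries and 135, 134 and 125 CPM in vehicle libraries. Rpl36a, of the 60S subunit, gave 196, 205 and 207 CPM in corticosterone libraries and 211, 199 and 201 CPM in vehicle libraries. Rps3a1, which encodes a 40S protein that faces the initiation factors, gave 155, 152 and 165 CPM in corticosterone against 156, 160 and 155 CPM in vehicle. These 3 genes, named after their values were seen, had a highest library 1.08 to 1.09 times the lowest. Most of the distance from all genes was thus shared by other genes of similar level.

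Many of the genes deviated in the same direction in the same library. As a deviation in log2 CPM from each gene's mean over the 6 libraries, the median over the 81 genes was -0.05, -0.06 and 0.12 in corticosterone replicates 1, 2 and 3 and 0.04, 0.02 and -0.06 in vehicle replicates 1, 2 and 3. The number of genes above their own mean was 22, 16 and 77 in the corticosterone libraries and 53, 46 and 16 in the vehicle libraries, while 50.5 to 52.5% of all genes were above their own mean in any library. Corticosterone replicate 3 was the highest library for 51 of the 81 genes, against 19.3% of all genes, and vehicle replicate 1 for 20, also against 19.3%. The lowest library was corticosterone replicate 2 for 30 genes, against 17.0% of all genes. Both subunits showed this, with a median of 0.11 for 60S and 0.13 for 40S genes in corticosterone replicate 3 and -0.09 and -0.06 in corticosterone replicate 2.

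**Figure D2:**
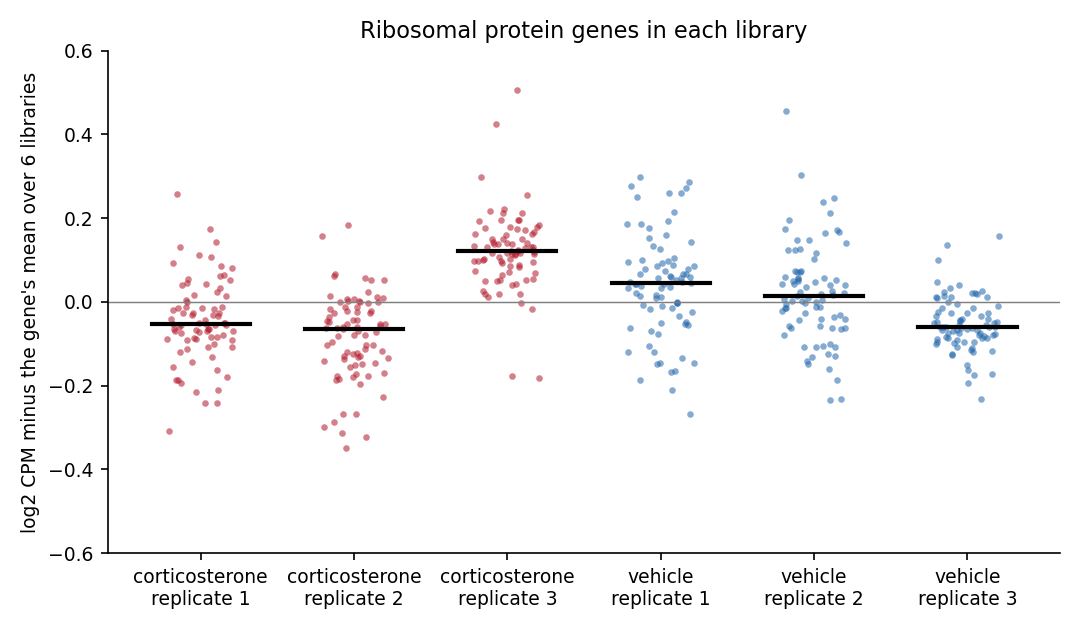
Deviation of each of the 81 ribosomal protein genes from its own mean over the 6 libraries, in log2 CPM, by library, with a black line at the median. Corticosterone replicate 3 has 77 genes above 0 and corticosterone replicate 2 has 16; 4 points of Rpl17 lie outside the axis.

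The libraries that lay near each other over all genes did not all lie near each other for the ribosomal protein genes. Corticosterone replicate 3 was higher than corticosterone replicate 2, its nearest library, for 78 of the 81 genes (96.3%), with a median log2 ratio of 0.20, against 49.3% of all genes. Corticosterone replicate 1 was higher than vehicle replicate 3 for 45 of the 81, with a median of 0.01, against 49.5% of all genes. Vehicle replicate 2 was higher than vehicle replicate 1 for 23 of the 81 (28.4%), with a median of -0.03, against 50.4% of all genes. Over the ribosomal protein genes alone, the nearest library to corticosterone replicate 3 was vehicle replicate 2 and the nearest to corticosterone replicate 2 was vehicle replicate 3. The libraries with the higher Fkbp5, which are corticosterone replicates 1 and 3 and vehicle replicate 2, had median deviations of -0.05, 0.12 and 0.02, and the others, corticosterone replicate 2 and vehicle replicates 1 and 3, had -0.06, 0.04 and -0.06. The values of these sets of libraries, which are not the study's groups, overlapped.

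Among the genes with the most positive differences was Rpl28 (GRCm38 chromosome 7), whose 60S protein is one that budding yeast lacks. It stood at 221, 237 and 242 CPM in corticosterone libraries and 194, 181 and 209 CPM in vehicle libraries, which is 0.26 ± 0.083 (SE) on the log2 scale with an edgeR adjusted p of 0.364. Every corticosterone library was above every vehicle library, and the difference did not pass the threshold after adjustment. Rps2, which encodes a 40S protein at the entry of the message channel, gave 17.6, 16.6 and 19.1 CPM in corticosterone against 13.8, 14.4 and 14.9 CPM in vehicle, a log2 difference of 0.30 ± 0.099 with the same edgeR adjusted p. Its groups too did not overlap, at 16.1 CPM per kb, and 49.8% of its transcript's 150-base windows, the length of a read, also occur in other genes. Rpl26 gave 10.2, 10.6 and 9.42 CPM in corticosterone libraries and 8.16, 9.40 and 8.30 CPM in vehicle libraries, without overlap, and Rpl21 gave 7.68, 6.23 and 9.15 CPM in corticosterone against 5.62, 6.72 and 5.92 CPM in vehicle, with overlap. Rpl29, the fifth by size, gave 0.70, 0.79 and 1.22 CPM in corticosterone libraries and 0.82, 0.69 and 0.83 CPM in vehicle libraries, and its log2 difference of 0.20 had a standard error of 0.31. Of these 5 genes, Rpl28 alone was abundant by the counts given to the gene itself. With processed copies added, Rps2 averaged 647 CPM and Rpl26 408 CPM, so these low values may not be the level of the message.

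Apart from Rpl17, which is described with its copies, the genes with the most negative differences were high in vehicle replicates 1 and 2. Rps27a, which encodes ubiquitin fused to a 40S protein, gave 231, 197 and 246 CPM in corticosterone libraries and 300.2, 303 and 218 CPM in vehicle libraries, which is -0.29 ± 0.15 on the log2 scale (SE, edgeR adjusted p = 0.474). Rpl32, of the 60S subunit, gave 245, 209 and 257 CPM in corticosterone against 315, 297 and 249 CPM in vehicle, a difference of -0.28 ± 0.12 (SE, edgeR adjusted p = 0.417). Rpl34, also of the 60S subunit, gave 163, 164 and 203 CPM in corticosterone against 233, 228 and 176 CPM in vehicle, a difference of -0.27 ± 0.14. In all 3, vehicle replicate 3 lay among the corticosterone libraries, so the groups overlapped. Rps24, a 40S gene mutated in human Diamond-Blackfan anaemia, gave 354, 347 and 451 CPM in corticosterone libraries and 498, 485 and 402 CPM in vehicle libraries. Rpl41 gave 630, 626 and 749.6 CPM in corticosterone libraries and 858, 808 and 661 CPM in vehicle libraries. In both, as in Rpl34, vehicle replicates 1 and 2 were highest and vehicle replicate 3 was under corticosterone replicate 3.

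Some genes had the opposite shape across the same libraries. Rpl8, a 60S protein beside the peptidyl transferase centre, gave 829, 779.6 and 883 CPM in corticosterone libraries and 704, 708 and 794 CPM in vehicle libraries, lowest in vehicle replicates 1 and 2. Rpl13, of the 60S subunit, gave 446, 418 and 472 CPM in corticosterone against 373, 382 and 425 CPM in vehicle, with the same 2 libraries lowest. Both overlapped between the labels by vehicle replicate 3 alone, and Rpl13 and Rps24 were named after their values were seen. Across the 81 genes the GC content of the transcript correlated with the log2 difference at r = 0.37, against 0.04 over 14406 genes. By library, the correlation of GC content with the deviation was 0.20, 0.21 and 0.21 in corticosterone replicates 1, 2 and 3 and -0.30, -0.35 and 0.19 in vehicle replicates 1, 2 and 3. The points share their libraries and their depth, and the part of GC content in these differences was not tested. Transcript length, on a log2 scale, gave r = 0.03 with the log2 difference across the 81 genes. Over all genes, length correlated with the deviation at -0.13 in corticosterone replicate 3 and at -0.008 to 0.07 in the other libraries. The median transcript had 775 bases for the ribosomal protein genes and 2674 for all genes kept. The part of length was not tested.

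**Figure D3:**
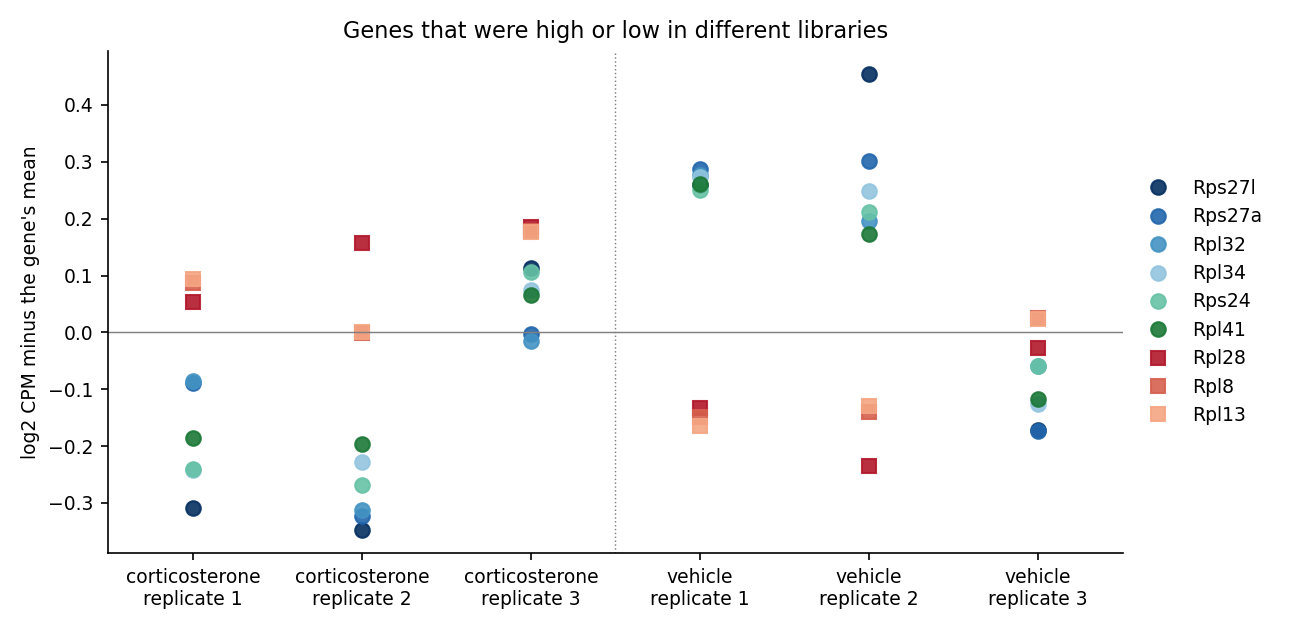
Deviation from the gene's own mean over 6 libraries, in log2 CPM, for 6 genes with negative differences (circles) and 3 with positive ones (squares), by library. The circles lie highest in vehicle replicates 1 and 2, where the squares lie lowest, and vehicle replicate 3 is not with them.

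The paralogs, whose proteins can take the place of a common ribosomal protein, were read beside their parents. Rps27l, a paralog that p53 is known to induce, gave 63.7, 62.0 and 85.4 CPM in corticosterone libraries and 94.5, 108 and 70.1 CPM in vehicle libraries, which is -0.37 ± 0.18 on the log2 scale (SE, edgeR adjusted p = 0.461). With 1 library left out this difference ran from -0.54 to -0.23, the latter without vehicle replicate 2. It was -0.14 without both corticosterone replicate 2 and vehicle replicate 2. Its parent Rps27 gave 143, 158 and 177 CPM in corticosterone against 174, 168 and 165 CPM in vehicle, a difference of -0.08 ± 0.092. Rps27l varied more, with its highest library 1.75 times its lowest, and it shared no window with another gene. Rpl22l1 gave 10.8, 9.17 and 9.19 CPM in corticosterone libraries and 12.8, 12.3 and 8.84 CPM in vehicle libraries, while Rpl22, which in mouse is known to repress it, gave 224, 219 and 244 CPM in corticosterone against 252, 247 and 226 CPM in vehicle. Per kilobase Rpl22l1 stood at 19.0 CPM and Rpl22 at 497 CPM, and both were lower in the mean of the corticosterone libraries, with overlap. Rpl36al gave 86.3, 86.0 and 98.7 CPM in corticosterone against 86.4, 92.9 and 87.9 CPM in vehicle, and Rpl7l1, a nucleolar relative of Rpl7, gave 107, 99.4 and 113 CPM in corticosterone against 124, 126 and 105 CPM in vehicle. Rpl7 itself gave 774, 695 and 824 CPM in corticosterone libraries and 779, 728 and 772 CPM in vehicle libraries, with a log2 difference of 0.01 ± 0.093.

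The paralogs known from muscle and testis, the annotated pseudogenes Rps4l and Rps12l1 and the 60S gene Rpl24 were near or at 0 counts. Rpl3l, which replaces Rpl3 in adult striated muscle, gave 0.63, 0.17 and 0.12 CPM in corticosterone libraries and 0.20, 0.07 and 0.13 CPM in vehicle libraries, where 3 counts make 0.103 to 0.125 CPM. Rpl3 gave 462, 428 and 463 CPM in corticosterone libraries and 471, 459 and 460.2 CPM in vehicle libraries. Rpl10l, Rps4l and Rps12l1 had 0 counts in all 6 libraries, and Rpl39l had a count in vehicle replicate 2 alone. Zero counts allow a level of up to 3 counts, and reads that also fit another gene may be missing, since all windows of Rps12l1 occur elsewhere. Rpl24, a 60S gene, also failed the filter, at 0.66, 0.21 and 0.35 CPM in corticosterone libraries and 0.23, 0.07 and 0.42 CPM in vehicle libraries, and 72.5% of its windows occur in other genes, including Gm28037, which shares its exons and had 0 counts in every library. Retrocopies held more counts than their source gene, with Rps3a2 at 276, 288 and 323 CPM in corticosterone libraries and 300.4, 291 and 270.0 CPM in vehicle libraries, Rps3a3 at 229 to 270 CPM over both groups, and Rps3a1 at 152 to 165 CPM; these were named after their values were seen.

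Several genes share sequence with copies of themselves. Of the 87 genes, 72 share at least 1 window of 150 bases with the transcript of another gene. Processed pseudogenes outside the 87 that share such a window numbered 208. Each was given as a copy to the gene with which it shared most windows, which left 62 genes with copies. Pseudogenes that share no whole window were not counted. Rpl17, a 60S protein at the exit of the peptide tunnel, varied most among the 81 genes kept by the filter, at 50.1, 89.6 and 156 CPM in corticosterone libraries and 237, 114 and 57.3 CPM in vehicle libraries, so that its highest library was 4.74 times its lowest. Its pseudogene Rpl17-ps10, which holds 40.6% of its windows, gave 156, 127 and 125 CPM in corticosterone libraries and 83.1, 176 and 177 CPM in vehicle libraries. The library with the most Rpl17 counts thus had the fewest of Rpl17-ps10. The sum of both was 206, 217 and 280 CPM in corticosterone libraries and 320, 290 and 234 CPM in vehicle libraries, 1.56 times from lowest to highest. The share of that sum given to Rpl17 was 24.4, 41.4 and 55.6% in corticosterone libraries and 74.1, 39.2 and 24.5% in vehicle libraries.

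**Figure D4:**
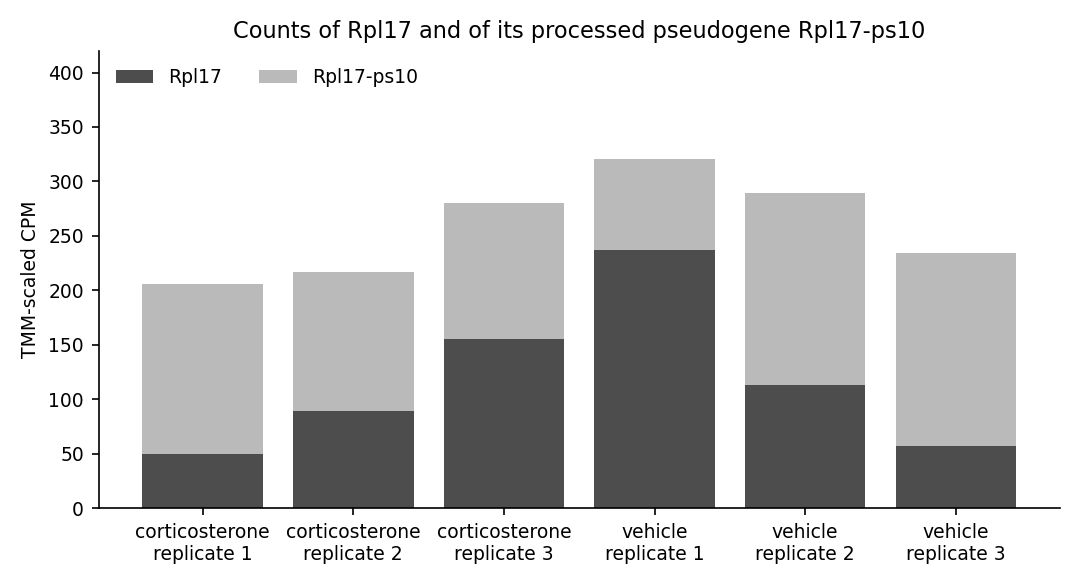
TMM-scaled CPM of Rpl17 (dark) and of its processed pseudogene Rpl17-ps10 (light), stacked, by library. The dark part runs from 50.1 CPM in corticosterone replicate 1 to 237 CPM in vehicle replicate 1, while the stacked total runs from 206 to 320 CPM.

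With the counts of the processed copies that share a window added, 7 of the 81 genes had more than 2 times their own level. Rpl29 averaged 0.84 CPM alone and 74.4 CPM with its 9 copies, Rps2 averaged 16.1 CPM alone and 647 CPM with 18, and Rpl26 averaged 9.34 CPM alone and 408 CPM with 3. Such sums take in any counts that belong to the copies themselves. The log2 difference of Rps2 was then 0.14, against 0.30 alone, that of Rpl26 was 0.011, against 0.22 alone, and that of Rpl28 was 0.27, against 0.26 alone. For Rpl21, the most positive alone at 0.33, it was 0.083, for Rpl29 it was 0.10, against 0.20 alone, and for Rpl17, the most negative alone at -0.47, it was -0.26. Genes whose highest library was over 1.4 times the lowest numbered 9 with copies and 11 without. The copies were summed after the values were seen.

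**Figure D5:**
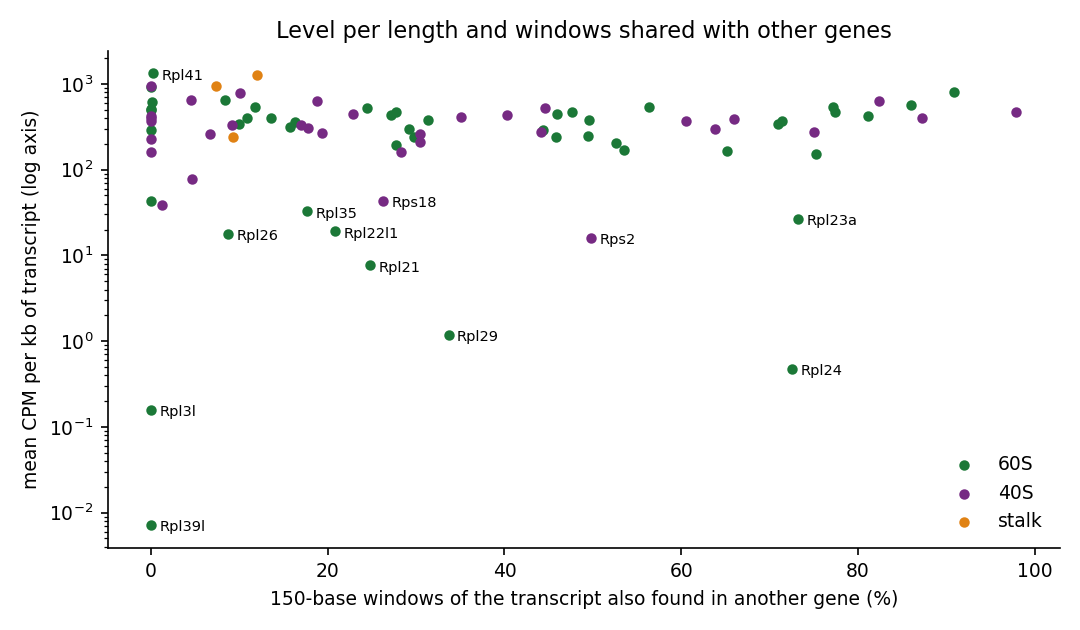
Mean CPM per kilobase over 6 libraries (log axis) against the percentage of each transcript's 150-base windows that also occur in another gene, by subunit, leaving out genes at 0 in every library. Rpl29 at 33.7% and Rpl24 at 72.5% are the lowest of the genes that share windows, and Rpl3l and Rpl39l, at 0%, are the lowest of the others.

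Genes of signalling and of the 5S particle had differences smaller than their standard errors. Rps6, the 40S protein that S6 kinase phosphorylates under mTORC1, gave 527, 551 and 654 CPM in corticosterone libraries and 566, 538 and 535 CPM in vehicle libraries, a log2 difference of 0.08 ± 0.10 (SE). Rps14, a 40S protein of the platform, gave 446, 433 and 515 CPM in corticosterone against 490, 487 and 443 CPM in vehicle, a difference of -0.03 ± 0.096. Rpl5 and Rpl11, which carry the 5S RNA and bind the p53 regulator Mdm2, had differences of -0.07 ± 0.099 and 0.06 ± 0.076. Rpl5 gave 463, 463 and 532 CPM in corticosterone libraries and 542, 523 and 464 CPM in vehicle libraries, and Rpl11 gave 312, 315 and 337 CPM in corticosterone against 323, 307 and 297 CPM in vehicle. All 4 overlapped between the labels, with corticosterone replicate 3 highest for Rps6, Rps14 and Rpl11 and vehicle replicate 1 highest for Rpl5.

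The start of the gene is where the TOP tract is read, so the starts of a few genes named above are shown, from RefSeq promoters on build GRCm38.p6. They lie at chr4:86857338-86857397 (Rps6, minus strand), chr3:90213619-90213678 (Rps27, minus strand), chr7:4792935-4792994 (Rpl28, plus strand), chr14:24490648-24490707 (Rps24, plus strand), chr3:28805478-28805537 (Rpl22l1, plus strand) and chr17:46782627-46782686 (Rpl7l1, minus strand). Each line runs 5′ to 3′ on the gene's strand, with 30 bases before the annotated start and 30 from the start on, and capitals mark the unbroken run of C and T that covers the start. The lines show Rps6, Rps27, Rpl28 and Rps24, which hold a long run, and Rpl22l1 and Rpl7l1, paralogs that do not hold one over the start. They were chosen to show both kinds, which do not divide common genes from paralogs: Rpl22, Rplp0, Rpl41, Rps15, Rpl5 and Rpl11 hold no C or T run over their annotated starts either, nor does a second annotated start of Rps24.
Rps6: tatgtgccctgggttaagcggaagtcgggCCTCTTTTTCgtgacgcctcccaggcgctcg
Rps27: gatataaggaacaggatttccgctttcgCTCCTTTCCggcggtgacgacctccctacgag
Rpl28: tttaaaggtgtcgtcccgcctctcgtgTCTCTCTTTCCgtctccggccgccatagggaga
Rps24: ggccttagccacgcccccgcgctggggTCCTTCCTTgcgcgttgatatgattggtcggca
Rpl22l1: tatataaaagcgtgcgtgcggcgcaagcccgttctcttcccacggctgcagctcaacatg
Rpl7l1: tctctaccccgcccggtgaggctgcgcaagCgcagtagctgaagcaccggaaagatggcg
In Rpl22l1 the base at the annotated start is not C or T, and a C and T run begins at the base after it, so the call depends on where the start is annotated. Rpl28 and Rps24, which both hold a long run, had differences of opposite sign, 0.26 for Rpl28 and -0.26 for Rps24.

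Of the 63 ribosomal protein genes with a promoter in the RefSeq table, which spans 250 bases before to 50 after the start, 27.0% had a run of at least 8 C or T over the start, against 4.59% of 27025 genes. A run of at least 8 lay within 50 bases of the start in 84.1% of them, against 39.3% of all genes. The letters CTTTCC on the gene's strand, within 50 bases of the start, were found in 31.7%, against 5.43% of all genes, and CTTTTC in 14.3%, against 4.32%; both can lie inside such a run. Searched on either strand over the whole promoter, CCGGAA, the core of sites for ETS factors such as GABP, was found in 54.0%, against 16.7% of all genes. GCGGAAG, which shares the letters CGGAA with it and whose matches can overlap it at the ends, was found in 27.0% against 6.53%, and GGGCGG, the GC box, in 61.9% against 38.2%. AAGATGG, a YY1-type motif around start codons, was found in 15.9% against 7.28%, TATAAA in 11.1% against 15.7%, and TATTTA in 12.7% against 15.7%. Such matches describe letters in these windows and are not binding sites.

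The rest of the translation machinery was read from lists of genes, and edgeR called 0 genes of any list, as over all genes. Among ribosomal proteins whose symbols the rule does not take, levels were 811, 808 and 899 CPM in corticosterone libraries and 801, 783 and 827 CPM in vehicle libraries for Rpsa, and 256, 261 and 295 CPM in corticosterone against 286, 271 and 264 CPM in vehicle for Fau, both of the 40S subunit. Both were highest in corticosterone replicate 3. Elongation factors and other TOP messages had 12 of 18 genes above 0, with a median log2 difference of 0.03. Scaled by library totals, which shifted the median of all genes to -0.04, the same list had 8 of 18 above 0 and a median of -0.02. In that list Eef1a1, which brings aminoacyl-tRNA to the ribosome, had a difference of 0.02 ± 0.10 and Eef2, the translocase, 0.12 ± 0.10 (SE). Initiation factors had 21 of 31 above 0 and a median of 0.04, or 14 of 31 and -0.004 scaled by library totals, with Eif4g1, the scaffold of the cap complex, at 800.2, 768 and 761 CPM in corticosterone libraries and 674, 704 and 744 CPM in vehicle libraries. Eif4g2 gave a difference of -0.03 ± 0.082.

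Among ribosome biogenesis factors, which make and assemble the subunits in the nucleolus, most differences were above 0. Of the 47 genes, 43 (91.5%) had a log2 difference above 0, against 50.8% of all genes and 40 of the 81 ribosomal protein genes, and their median was 0.13. An unadjusted p under 0.05 was found for 14, and 12 had no overlap between the labels, all higher in corticosterone; the background is 11.8% and 8.41% of all genes. Without corticosterone replicate 2, those without overlap numbered 29 (61.7%), against 27.5% of all genes, and the median was 0.21. They were 34.0 and 36.2% without corticosterone replicate 1 and vehicle replicate 3, against 34.3 and 41.9%. Without both of these libraries they were 40.4%, against 57.7%. Leaving out corticosterone replicate 3, vehicle replicate 1 or vehicle replicate 2 gave 25.5, 25.5 and 34.0%, against 23.0, 20.1 and 23.8%. With corticosterone replicate 2 and vehicle replicate 2 left out they were 72.3%, against 37.1%. Without vehicle replicate 1 the median was 0.075. The number above 0 was 35 scaled by library totals, 34 without corticosterone replicate 1 and 36 without vehicle replicate 1. In the same settings 41.1, 51.2 and 48.8% of all genes were above 0. DESeq2 called 1 of the 47, Polr1e, against 1.04% of all genes with an adjusted value. The median deviation by library was 0.11, -0.06 and 0.16 in corticosterone replicates 1, 2 and 3 and -0.14, 0.00 and -0.06 in vehicle replicates 1, 2 and 3. Corticosterone replicates 1 and 3 were thus the highest and vehicle replicate 1 the lowest for these factors, while for the ribosomal proteins corticosterone replicate 1 was low and vehicle replicate 1 second highest. Ncl, which encodes nucleolin, gave 591, 541 and 610 CPM in corticosterone libraries and 580, 584 and 539 CPM in vehicle libraries, and Ddx21, a nucleolar helicase, gave 235, 201 and 217 CPM in corticosterone against 188, 204 and 192 CPM in vehicle. Chosen after their values were seen, Polr1e, a subunit of RNA polymerase I, gave 14.1, 14.4 and 15.3 CPM in corticosterone against 9.45, 10.8 and 10.8 CPM in vehicle (log2 difference 0.50 ± 0.11, SE), and Nolc1, a nucleolar chaperone, gave 106, 94.1 and 111 CPM in corticosterone against 77.7, 82.7 and 84.8 CPM in vehicle (0.35 ± 0.085, SE). Both had no overlap, and both had an edgeR adjusted p of 0.364, so neither passed that test.

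The mitochondrial ribosome, built from a separate set of nuclear genes, had 30 of 76 genes above 0 (39.5%) and a median of -0.03. Mrpl13, of its large subunit, gave 61.4, 57.0 and 58.3 CPM in corticosterone libraries and 85.3, 78.9 and 68.9 CPM in vehicle libraries, which is -0.40 ± 0.093 on the log2 scale (SE, edgeR adjusted p = 0.364). Mrpl51, also of the large subunit, gave 65.8, 66.2 and 70.4 CPM in corticosterone against 58.5, 57.7 and 62.1 CPM in vehicle, a difference of 0.18 ± 0.070. Neither overlapped between the labels and neither passed, although DESeq2 called Mrpl13, and the list held 7 genes without overlap in each direction, against 8.41% of all genes higher and 8.19% lower. Non-coding host genes with a TOP tract had 5 of 9 above 0 and a median of 0.01, or 4 of 9 and -0.03 scaled by library totals, with Snhg5 at a difference of 0.22 ± 0.14 and Snhg17 at -0.13 ± 0.18 (SE). Regulators of ribosome output in the mTOR and Myc pathways had 17 of 23 above 0 and a median of 0.07, or 14 of 23 and 0.02 scaled by library totals. Of these 23 genes DESeq2 called 1, Mycl, against 1.04% of all genes with an adjusted value. Without corticosterone replicate 1 and vehicle replicate 3, edgeR called 2, Mycl and Ddit4, an inhibitor of mTOR signalling. In that setting it called 575 of all 14511 genes kept. The libraries left were corticosterone replicates 2 and 3 and vehicle replicates 1 and 2. Within each label these were each other's nearest library over all genes, so label and nearest pair cannot be told apart there. Deptor, an inhibitor of mTOR, gave 966, 466 and 760.3 CPM in corticosterone libraries and 546, 1016 and 549.8 CPM in vehicle libraries, high in the same libraries as Fkbp5, and Akt1, a kinase upstream of mTORC1, gave 325, 304 and 309 CPM in corticosterone against 308, 295 and 319 CPM in vehicle.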

How the data were processed

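The authors deposited a table of raw counts for 6 poly(A) libraries. Tools named in the submitters' processing notes were HTSeq 0.6.1, HISAT2 2.0.5 and DESeq2 1.24.0. How the counting treated strand and shared reads, and with which annotation, is not given in the sources used. The counts were used as deposited, and every column was mapped. Genes were kept by filterByExpr, scaled by TMM and tested in 1 two-sided fit over all 6 libraries with edgeR 4.0.16 (R 4.3.3), with Benjamini-Hochberg adjustment over 14450 genes. CPM are TMM-scaled, log2 CPM use a pseudocount of 0.1 CPM, and shares are of raw totals. Shared windows, lengths and GC content come from the principal transcript in GENCODE M21 (GRCm38), and for Rps15a and Rps20 that transcript is unusually long. On counts simulated for these 14450 genes, edgeR found 34.3, 84.3 and 100.0% of genes changed 1.5-, 2- and 4-fold, with 4 false calls. Genes named are the stalk, the paralogs with their parents, the 5 highest per kb, the 5 most positive and most negative differences, those without overlap at an unadjusted p under 0.05, Rps6, Rps14, Rpl5 and Rpl11, and the 2 most abundant of each list. Others are said to be chosen after their values were seen, and so were Rpl23, Rps4x, Rpl37 and Rpl24. The genes and all lists were chosen with earlier results of these data known, so no list was tested as a set. Alternatives were DESeq2 1.42.0, limma-voom (limma 3.58.1), other scalings and filters, a gene-length offset, a replicate block and each library left out. No pairing by replicate number is stated, and the main fit had no replicate block. Rack1 and Mymk are not analysed here, and some items are not reported here.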

Additional observations from a re-analysis of the deposited data

How the results depend on the processing

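No ribosomal protein gene was called under any alternative run: DESeq2, limma-voom, 4 other scalings, other filters, protein-coding genes alone, a gene-length offset, a replicate block, copies summed, each library left out and 2 pairs of libraries left out, the pairs and the summed copies being added after the values were seen. Over all genes DESeq2 called 138, and leaving out 1 library gave 0 to 29. Without corticosterone replicate 2 and vehicle replicate 2 there were 3 genes called, and without corticosterone replicate 1 and vehicle replicate 3 there were 575. In the latter, the libraries left in each label were each other's nearest over all genes, so label and nearest pair cannot be told apart. With 1 library left out, the ribosomal protein genes above 0 numbered 25 to 53 (54 without corticosterone replicate 2 and vehicle replicate 2), their median log2 difference was -0.06 to 0.04, and those without overlap numbered 8 to 30, where 20.1 to 41.9% of all genes had none. Those without overlap numbered 16 without corticosterone replicate 2 and vehicle replicate 2, against 37.1% of all genes, and 28 without corticosterone replicate 1 and vehicle replicate 3, against 57.7%. The log2 difference of Rpl29 reversed to -0.070 without corticosterone replicate 3 and otherwise reached 0.39, without corticosterone replicate 1 and vehicle replicate 3. That of Rpl17 ran from -0.96 without corticosterone replicate 3 to 0.19, reversed, without vehicle replicate 1. The cause was not tested. Library totals as the scaling gave 30 of 81 above 0 and a median of -0.05, beside 41.1% above 0 and a median of -0.04 over all genes. Deviations of genes from their label's mean correlated at -0.15, -0.27 and -0.32 between same-numbered libraries. Deviations within a label sum to 0, and replicate 2 of each label went against its label by Fkbp5. These correlations therefore cannot decide whether the numbers pair the samples. With the replicate block 0 genes were called, 40 of 81 were above 0 and the median was -0.003. Low counts limit Rpl3l, Rpl24 and Rpl39l.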
